A study of Mus musculus with 2 samples.

Results

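The splicing factor and hnRNP genes are the 52 protein-coding genes, among 21542 genes in the deposited table, whose names begin with Srsf (11 genes), Hnrnp (20), Snrp (12) or Sf3 (9). The rule that chose them used name and gene class and no measured value, but it was set with earlier results of these data known. All of them were measured in MIN6 cells, a mouse insulinoma line of C57BL/6 origin that secretes insulin and stands in for the beta cell of the pancreatic islet. One culture had received a vector that expresses GR, the glucocorticoid receptor (gene Nr3c1), and the other a control vector, with 1 RNA sequencing library each. Both grew with 25 mM glucose and 15% serum, and both received 4 ug of plasmid with 4.8 ul of Lipofectamine 2000 in a 3.5 cm dish. The sources used here do not give the promoter of the vector, which GR cDNA it carries (its species or form), the share of cells that took up plasmid, the time to harvest or whether glucocorticoid was added. With 1 library per group no difference below has a replicate check, and intervals cover counting error only.

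Splicing removes introns from precursor messenger RNA in the spliceosome, which is built from small nuclear ribonucleoproteins (snRNPs). Each snRNP holds a small nuclear RNA with a ring of Sm proteins and proteins of its own. U1 recognises the start of the intron, and U2, with the SF3A and SF3B complexes, recognises the branch point near its end. SR proteins, which carry arginine and serine repeats, mostly help the spliceosome to choose exons, and heterogeneous nuclear ribonucleoproteins (hnRNPs) coat the transcript and often oppose that choice. In beta cells, as in neurons, alternative splicing shapes ion channel and exocytosis transcripts.

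The GR library held 18525668 reads over genes and the control library 18537326. Nr3c1 itself had 5202 reads with the GR vector, against 2645 with the control vector, a fold of 1.97 (95% interval 1.88 to 2.07). All 12 beta cell markers examined were present, with 794840 summed reads in the GR library and 841147 in the control library, among them Ins2 with 373033 and 407986. Of the markers of other cell types, alpha, delta and PP cell genes summed to 746 reads with the GR vector and 638 with the control vector (3 of 7 markers in the table), acinar and duct genes to 103 and 103 (2 of 8), immune genes to 27 and 30 (3 of 5), and fibroblast and endothelial genes to 110 and 93 (5 of 6). No listed marker in the table was at 0 reads in either library. Fewer cells of a type and less RNA per cell cannot be told apart in such bulk libraries.

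Transcripts of the splicing machinery stood at nearly the same level in both libraries. The 52 genes together took 221986 reads (1.198% of the library) with the GR vector and 220456 (1.189%) with the control vector. A mean of 100 reads over both libraries was reached by 51 of them; the exception was Srsf12. Over these 51 the median log2 fold (GR vector over control vector) was 0.02, with 31 genes above 0 and 20 below, against a median of 0.0042 over all 11070 genes with that many reads. Above 0 lay 60.8% of the 51 and 51.3% of the 11070. The standard deviation of log2 folds among the 51 was 0.09, and among the 11070 it was 0.14. These are not matched for depth: the median of mean reads was 3324 for the 51 and 843 for the 11070. Over all genes absolute log2 folds fell with reads (Spearman's rho -0.37). Among genes averaging at least 1000 reads the quartiles were -0.031 and 0.047 for 43 splicing genes, and -0.044 and 0.058 for all 4867.

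A fold of 1.2 in either direction was reached by 1 of the 51 genes, Snrpe, which was lower, and 0 were higher. Of all genes with that many reads, 5.04% reached it (2.68% higher and 2.36% lower). Of the 4867 genes averaging at least 1000 reads 0.288% did (0.185% higher and 0.103% lower), and of the 43 splicing genes in that class 0 did. Their log2 folds ran from -0.11 to 0.09. At a fold of 1.1, reached by 10.7% of the 11070 genes on the higher side and 10.4% on the lower (21.1% in all), 2 of the 51 were higher, Snrpn and Snrpf, and 1 was lower. At a fold of 1.5, reached by 0.126% of the 11070 on the higher side and 0.154% on the lower (0.28% in all), 0 of the 51 lay in either direction.

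**Figure D1:**
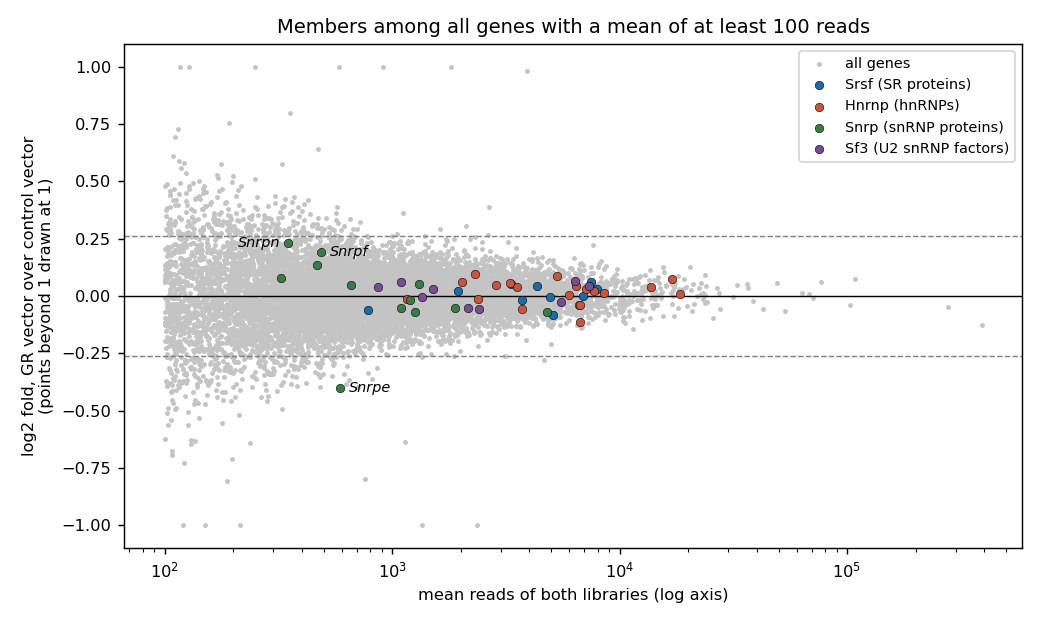
Log2 fold, GR vector over control vector (vertical axis, points beyond 1 drawn at 1) against the mean reads of both libraries (log axis) for 11070 genes in grey and the 51 splicing genes in colour by family. Dashed lines mark a fold of 1.2 in each direction; Snrpe, at -0.40, is the coloured point below the lower line, and Snrpn and Snrpf are the highest.

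Exact 95% counting intervals of the fold left out 1 for 12 of the 51 genes, against 19.5% of the 11070. On the higher side were 8 (Hnrnpk, Hnrnpu, Hnrnpc, Hnrnpll, Srsf3, Sf3b1, Snrpf and Snrpn), a share of 15.7% against 10.8% of all genes averaging at least 100 reads. On the lower side were 4 (Hnrnpa0, Srsf5, Snrpb and Snrpe), a share of 7.84% against 8.63%. Among the 43 averaging at least 1000 reads the shares were 14.0% higher and 6.98% lower, against 15.7% and 11.0% of all genes in that class (26.6% in all). Neither share of these 43 exceeds that of other genes read as deeply. The other 39 genes had folds between 0.954 and 1.097. The higher calls depended on transcript GC content: with the trend of all genes on GC content removed, 0 of the 51 intervals lay above 1 and 6 below (Hnrnpa0, Hnrnpa2b1, Hnrnpdl, Sf3b3, Snrpe and Srsf5), against 7.54% and 6.58% of 11062 genes. With the trend on transcript length removed, 4 lay above 1 (Hnrnpc, Hnrnpu, Snrpf and Snrpn) and 3 below (Hnrnpa0, Snrpe and Srsf5), against 9.61% and 8.91% of genes.

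**Figure D2:**
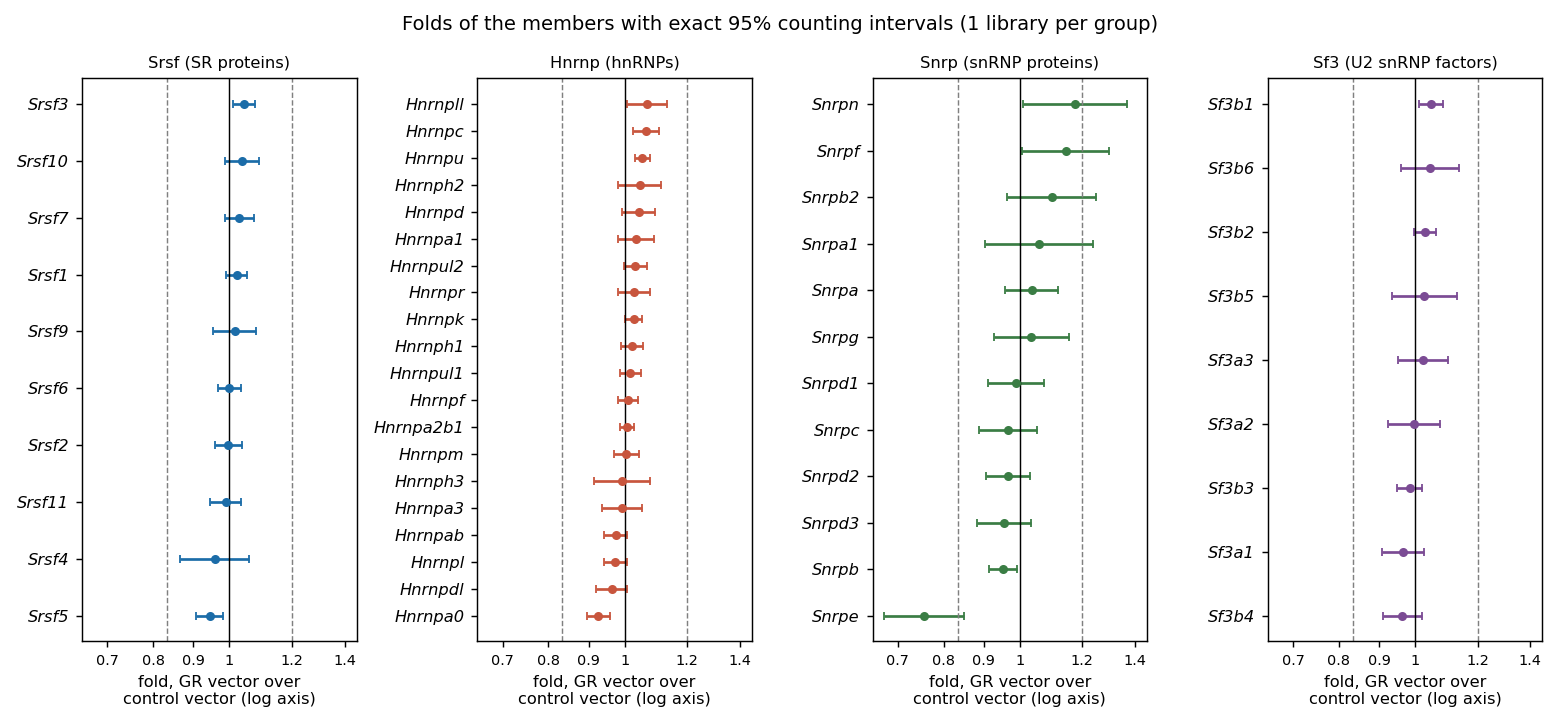
Fold, GR vector over control vector (log axis) for each splicing gene averaging at least 100 reads, in a panel per family, with exact 95% counting intervals from 1 library per group. Solid lines mark a fold of 1 and dashed lines 1.2 in each direction; Snrpe, at 0.756, is the point beyond a dashed line.

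SR protein genes differed little in either direction. Their median log2 fold was 0.01 over 10 genes, with 6 above 0 and 4 below, and they summed to 46715 reads with the GR vector and 46476 with the control vector. Srsf3, a small SR protein that also takes part in messenger RNA export, had 7666 reads with the GR vector and 7375 with the control vector, a fold of 1.04 (1.01 to 1.08). Srsf1, the founding member of the family, had 8057 and 7913 reads in the GR and control libraries, a fold of 1.02 (0.990 to 1.05). These were the most read SR genes. Only the interval of Srsf3 left out 1, and its log2 fold of 0.06 was 0.0032, within counting error, once the GC trend was removed.

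On the lower side stood Srsf5, with 4954 reads in the GR library and 5266 in the control library, a fold of 0.943 (0.907 to 0.981). Srsf4, the longest of the classical SR proteins, had 764 and 800 reads with the GR and control vectors (0.958, 0.866 to 1.06). Srsf11 had 3680 and 3732 (0.989, 0.945 to 1.04). Of these only Srsf5 lay beyond its counting error. Srsf10, which turns into a general splicing repressor when it is dephosphorylated, had 3380 reads in the GR library and 3268 in the control library (1.04, 0.988 to 1.09), and Srsf7 had 4413 and 4298 (1.03, 0.987 to 1.07).

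Srsf2, a component of nuclear speckles, Srsf6 and Srsf9 had folds between 0.997 and 1.02. Srsf6 had 6909 reads with the GR vector and 6928 with the control vector, the smallest relative difference among SR genes. Srsf12 was all but silent, with 5 and 4 reads in the GR and control libraries (fold 1.25, 0.270 to 6.32), so no difference could be detected at this depth.

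The hnRNP genes, the most abundant family of the set, had 14 members above 0 and 6 below, where 51.3% of all 11070 genes lay above 0. Their median log2 fold was 0.03 over 20 genes, and they summed to 0.714% of reads with the GR vector and 0.706% with the control vector. Hnrnpu, a large protein also known as scaffold attachment factor A that binds chromatin as well as RNA, had 17362 reads with the GR vector and 16533 with the control vector, a fold of 1.05 (1.03 to 1.08). Hnrnpc, which binds runs of uridine, had 5449 and 5141 in the GR and control libraries, a fold of 1.06 (1.02 to 1.104). Hnrnpll, known for its part in the splicing of the leukocyte antigen CD45 in lymphocytes, had 2392 and 2247 (1.07, 1.01 to 1.13). These were the highest folds of the family, each at or under 1.07. Each lay beyond counting error before the GC trend was removed and within it afterwards, with log2 folds of 0.02 for Hnrnpu, 0.03 for Hnrnpc and 0.04 for Hnrnpll.

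Hnrnpa0, an intronless gene of the A and B group, was the lowest hnRNP gene, with 6443 reads in the GR library and 6981 in the control library, a fold of 0.926 (0.895 to 0.958). Hnrnpdl had 3641 and 3792 reads with the GR and control vectors (0.963, 0.920 to 1.01). Hnrnpl, which binds CA repeats, had 6554 and 6756 (0.973, 0.940 to 1.01). Only Hnrnpa0 of these lay beyond counting error. Hnrnpa2b1, the most read gene of the set and, with Hnrnpc, a binder of m6A-modified transcripts, had 18432 reads with the GR vector and 18377 with the control vector, a fold of 1.01 (0.985 to 1.03). Before the GC trend was removed the libraries could not be told apart at that gene, although it was the most deeply read; afterwards its log2 fold was -0.05 and beyond counting error.

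The other 13 hnRNP genes had folds between 0.974 and 1.04. They include Hnrnpk, which binds runs of cytidine (13874 reads with the GR vector and 13557 with the control vector, fold 1.03, 1.00 to 1.05), the A1, A3 and AB proteins, the D protein, also known as AUF1, of AU-rich messenger decay, and the F and H proteins, which bind runs of guanosine. Of the related pairs, Hnrnph1 and Hnrnph2 had folds of 1.02 and 1.04, and Hnrnpul1 and Hnrnpul2 of 1.02 and 1.03. Other pairs lay on opposite sides of 1: Hnrnpl and Hnrnpll at 0.973 and 1.07, and Hnrnpd and Hnrnpdl at 1.04 and 0.963.

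The snRNP protein genes were the least read family and held the widest spread, with log2 folds from -0.40 to 0.23 over 12 genes, 6 above 0 and 6 below, and a median of 0.02 that was -0.05 over those averaging at least 500 reads. Their standard deviation was 0.16, against 0.05 in each of the SR, hnRNP and SF3 families. Their median of mean reads was 876.5, against 4648 for SR genes and 6220.5 for hnRNP genes, and the spread of log2 folds is wider at low reads in all genes as well. The proteins particular to U1 had folds near 1: Snrpa (U1-A) had 1329 reads with the GR vector and 1287 with the control vector, and Snrpc (U1-C) had 1075 and 1117. Those of U2 were Snrpa1 (U2-A), with 334 and 317 reads in the GR and control libraries, and Snrpb2 (U2-B), with 489 and 447, a fold of 1.097 (0.963 to 1.25). None of these 4 intervals left out 1.

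The 7 genes of the Sm ring, whose proteins assemble around each small nuclear RNA as B, D1, D2, D3, E, F and G, had a median log2 fold of -0.05, with 2 above 0 and 5 below. Snrpb, the most read, had 4650 reads with the GR vector and 4898 with the control vector, a fold of 0.952 (0.914 to 0.991). Snrpd2 had 1850 and 1924 in the GR and control libraries (0.964, 0.904 to 1.03), and Snrpd3 had 1230 and 1293 (0.954, 0.882 to 1.03). Snrpd1 and Snrpg lay at 0.989 and 1.03. Thus 5 of the 7 lay within 5% of equality, and Snrpe and Snrpf lay outside.

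Snrpf, the gene of the F protein (chr10:93583029-93589706, minus strand, GRCm38), had 516 reads with the GR vector and 453 with the control vector, a fold of 1.14 (1.005 to 1.30). Its count is uncertain: 92.1% of its 31-mers, the stretches of 31 bases in its transcripts, occur in another annotated gene. The 3′ part of Ccdc38, on the opposite strand (chr10:93540632-93584327), overlaps it and shares 61.7% of them; the sources used here do not say whether the counting used strand. Ccdc38 had 19 reads with the GR vector and 8 with the control vector, and the sum of both genes kept the higher level (535 against 461 reads, fold 1.16, 1.03 to 1.32). That sum leaves out Gm13092, a processed pseudogene with 23.1% of the 31-mers of Snrpf. Gm13092 had 33 reads with the GR vector and 38 with the control vector, on the other side. Whether the higher level of Snrpf holds with Gm13092 added was not tested.

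Snrpn, which encodes SmN, a close relative of SmB that is known from brain and from an imprinted locus, had the highest fold of the 51, with 377 reads in the GR library and 322 in the control library, a fold of 1.17 (1.01 to 1.37). It lies at chr7:59982495-60140219 on the minus strand, and 34.5% of its 31-mers occur elsewhere. Gm38393, a gene annotated within the same locus (chr7:59974149-60005064, minus strand), shares 23.7% of them and had 143 and 127 reads with the GR and control vectors; together they had 520 and 449 (1.16, 1.02 to 1.32). SmB remained the main form by transcript: per length, Snrpb stood 13.5 times above Snrpn in the GR library and 16.6 times in the control library.

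Snrpe, the gene of the E protein (ENSMUSG00000090553, chr1:133603871-133610291, minus strand, GRCm38), had 506 reads with the GR vector and 671 with the control vector. The fold was 0.756 (0.673 to 0.850), or -0.40 on the log2 scale. It was the one splicing gene past 1.2-fold. The p-values of Snrpe in the authors' deposited table were 0.341 before adjustment and 1 after it.

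A processed pseudogene of Snrpe, named Snrpert (ENSMUSG00000082044, chr2:131322088-131322366, minus strand), is in the table and lay on the other side. Snrpert had 89 reads with the GR vector and 61 with the control vector, a fold of 1.46 (1.04 to 2.06). Of the 31-mers of Snrpe, 12.6% occur in Snrpert, and the count of each gene depends on how reads that match both were handled.

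Added together, Snrpe and Snrpert had 595 reads with the GR vector and 732 with the control vector, a fold of 0.815 (0.730 to 0.910), so Snrpe remained lower after its pseudogene was counted with it. Whether other copies outside the table took reads was not tested.

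**Figure D3:**
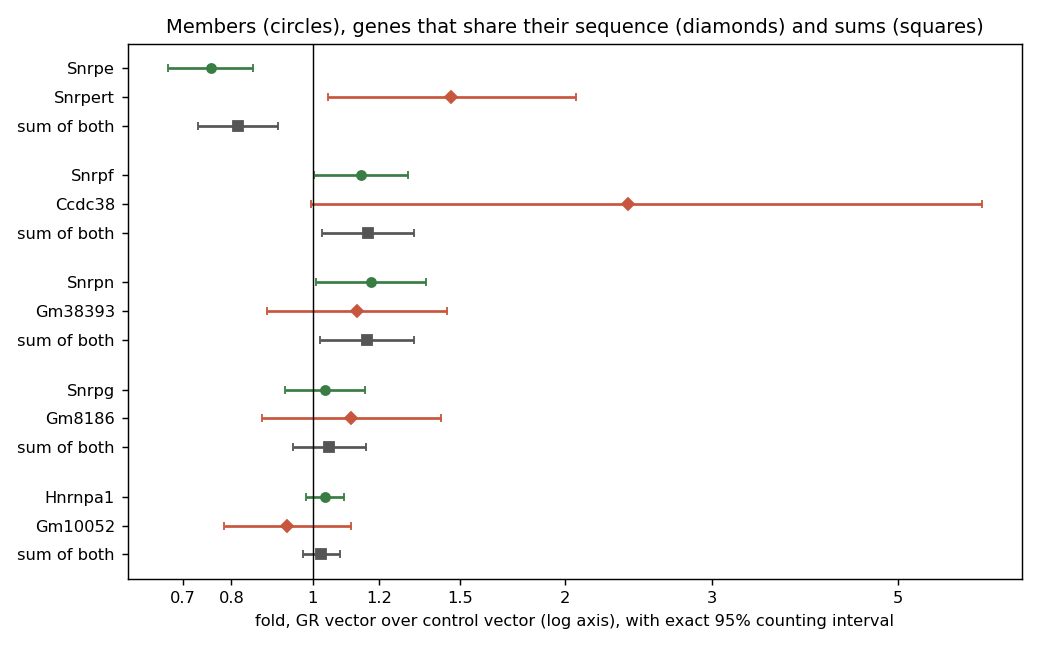
Fold, GR vector over control vector (log axis, exact 95% counting intervals, 1 library per group) for 5 splicing genes (circles), a gene that shares their sequence (diamonds) and the sum of both (squares). Snrpe lies at 0.756, Snrpert at 1.46 and their sum at 0.815; for the other pairs the sum stays close to the splicing gene. Partners outside these pairs, such as Gm7964 of Hnrnpk and Gm13092 of Snrpf, were not summed.

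The SF3 genes, whose proteins bind U2 at the branch point, had folds between 0.962 and 1.05. Their median log2 fold was 0.03 over 9 genes, 5 above 0 and 4 below. Sf3b1, the large subunit that holds the branch point and is recurrently mutated in human myelodysplasia, had 6477 reads with the GR vector and 6209 with the control vector, a fold of 1.05 (1.01 to 1.08). Sf3b2 had 7469 and 7273 in the GR and control libraries (1.03, 0.997 to 1.06). Sf3b6, a small subunit near the branch point, had 1120 and 1075 (1.04, 0.960 to 1.14). Only the interval of Sf3b1 left out 1, and with the GC trend removed its log2 fold was -0.0049, within counting error.

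Among the lower SF3 genes, Sf3b4 had 2370 reads in the GR library and 2470 in the control library (0.962, 0.909 to 1.02). Sf3a1 had 2111 and 2194 with the GR and control vectors (0.965, 0.909 to 1.02), and Sf3b3 had 5469 and 5578 (0.983, 0.947 to 1.02). Sf3a2, Sf3a3 and Sf3b5 lay between 0.996 and 1.03. By complex the median log2 fold was -0.0054 over the 3 SF3A genes and 0.04 over the 6 SF3B genes.

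Levels per length differed far more between the genes than between the libraries. Levels in RPKM, reads scaled to library size and to the length of merged exons in kilobases, ran from 5.69 for Snrpa1 to 152 for Hnrnpf with the GR vector, and from 5.39 to 151 for the same genes with the control vector. The median over 51 genes was 32.4 RPKM with the GR vector and 31.5 with the control vector, against 9.96 in either library over all genes averaging at least 100 reads. The order of the genes hardly differed between the libraries (Spearman's rho 0.994 over 51 genes, which share both libraries and their lengths).

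In the GR library the leading levels were 152 RPKM for Hnrnpf, 151 for Hnrnpa2b1, 130 for Hnrnpa0, 128 for Hnrnpab, 127 for Snrpb and 116 for Hnrnpk. The control library had 151, 150, 140, 132, 134 and 113 RPKM for the same genes. Hnrnpf is uncertain here, since 66.2% of its 31-mers occur in other genes. With the longest transcript as the length, the order in the GR library was Hnrnpa2b1 at 273 RPKM, Hnrnpk at 252, Hnrnpf at 193, Hnrnpab at 151 and Snrpb at 147, with Hnrnpa0 at 130 behind them. SR genes with at least 100 reads on average ran from 11.6 RPKM (Srsf4) to 90.0 (Srsf2) with the GR vector and from 12.1 to 90.3 with the control vector.

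Within the Sm ring, whose proteins are joined in equal number, transcript levels were unequal. With the GR vector Snrpb stood at 127 RPKM, Snrpd2 at 38.2, Snrpf at 32.4, Snrpd1 at 31.2, Snrpg at 23.0, Snrpe at 19.9 and Snrpd3 at 19.3. With the control vector the levels were 134 for Snrpb, 39.6 for Snrpd2, 28.4 for Snrpf, 31.5 for Snrpd1, 22.2 for Snrpg, 26.4 for Snrpe and 20.2 for Snrpd3. By level, Snrpe ranked 40th of the 52 genes with the GR vector and 32nd with the control vector. Merged exon length counts every annotated exon, so the order within the ring depended on it. With the longest transcript in its place the GR library had 147 RPKM for Snrpb, 74.6 for Snrpd1, 70.4 for Snrpd2, 40.9 for Snrpe, 34.2 for Snrpg, 32.4 for Snrpf and 21.9 for Snrpd3. The control library had 154, 75.4, 73.0, 54.0, 33.0, 28.4 and 22.9 RPKM for the same genes. On that scale the median over the 51 genes was 65.3 RPKM with the GR vector and 66.4 with the control vector.

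**Figure D4:**
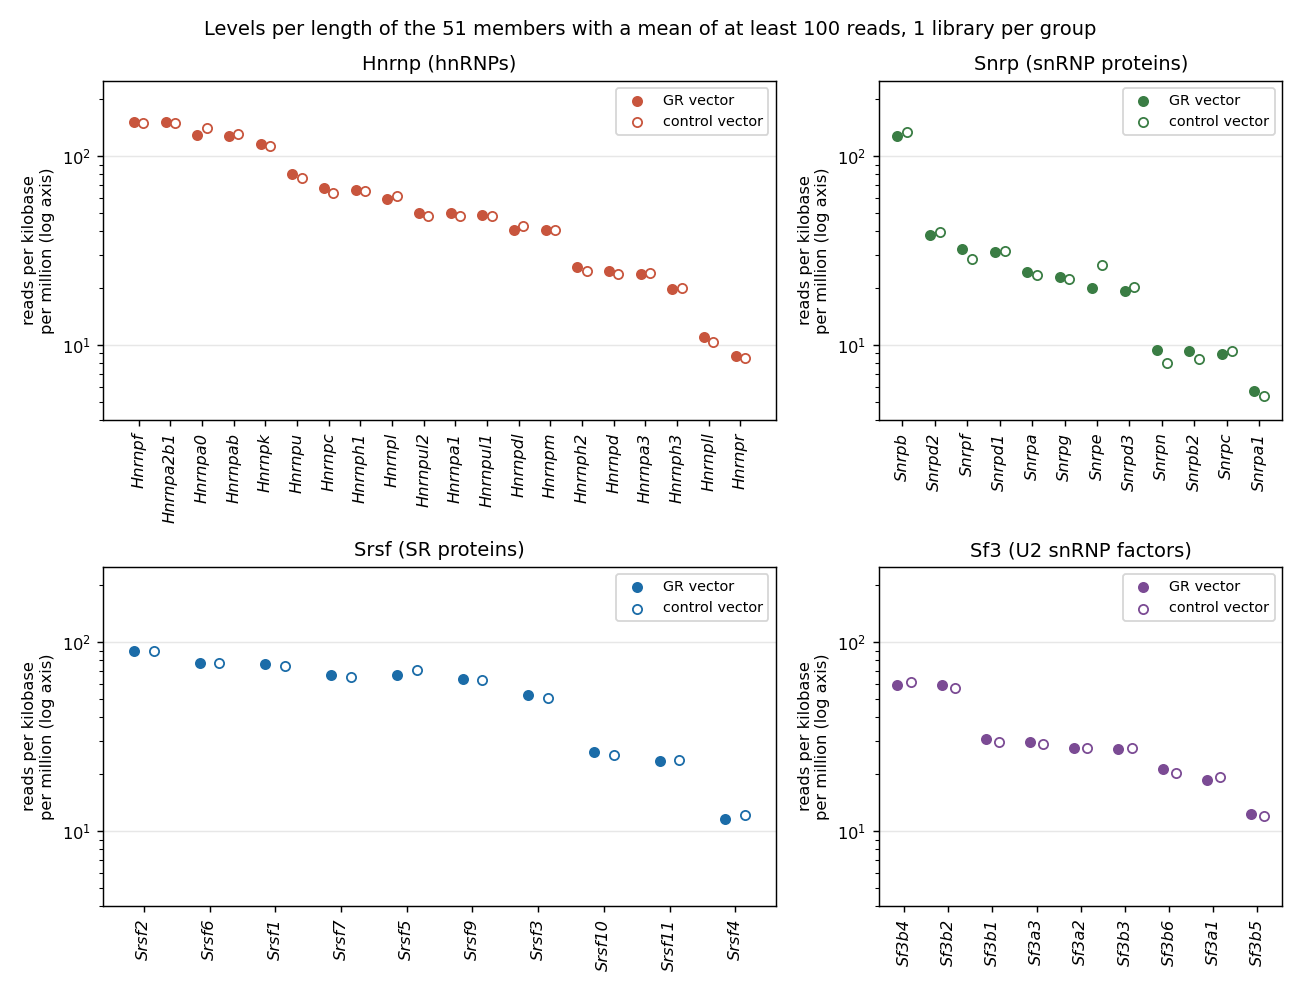
Level per length (RPKM, log axis) of the 51 splicing genes in the GR library (filled) and the control library (open), by family and in order of level. Filled and open points nearly coincide except for Snrpe, at 19.9 and 26.4, while levels span from 5.69 to 152 with the GR vector.

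Sequence shared with other genes touched 9 of the 52 genes at 25% or more of their 31-mers: Hnrnpa1, Hnrnpa3, Hnrnpab, Hnrnpf, Sf3b4, Snrpa, Snrpf, Snrpn and Srsf4. Their folds ran from 0.958 to 1.17. Hnrnpa1 had 2903 reads with the GR vector and 2817 with the control vector, and its pseudogene Gm10052 had 254 and 273; the sum gave a fold of 1.02 (0.975 to 1.08). Snrpg had 667 and 647 reads in the GR and control libraries, and Gm8186, which shares 12.6% of the 31-mers of Snrpg, had 143 and 129 (sum 1.05, 0.948 to 1.16). For neither did the sum move the fold beyond its counting error.

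Promoter windows of 250 bases before to 50 after the start site were taken from RefSeq (GRCm38.p6) for the 46 splicing genes that matched by symbol, which have 63 windows. They were rich in CpG, with a median of 25 CpG pairs, against 21 over 11065 windows of genes averaging at least 100 reads and 7 over all 32851 windows. The motif CCGGAAG, the core bound by ETS factors, was found on either strand in 33.3% of the 63 windows, against 18.5% of the windows of genes with that many reads and 8.86% of all windows. AGAACA, the hexamer that stands on each side of the palindrome bound by a GR dimer, was found on either strand in 6.35% of the 63, against 11.8% and 19.0%. The whole palindrome, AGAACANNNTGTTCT, was in 0 of the 63, in 0 of the 11065 windows of genes averaging at least 100 reads and in 3 of all 32851 windows. With so few matches anywhere, 0 of 63 does not set the splicing genes apart.

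The 4 splicing genes with the hexamer were Hnrnpd, Snrpa1, Snrpg and Srsf6, with folds of 1.04, 1.06, 1.03 and 1.00. Such matches are descriptions of these letters in these windows only. The windows of Snrpe, the gene past 1.2-fold, and Snrpg, which holds both motifs, are shown with CCGGAAG and AGAACA matches on either strand in capitals. Snrpe is at chr1:133610231-133610530 on the minus strand, where the ETS core occurs on both strands in overlap, and Snrpg at chr6:86371290-86371589 on the plus strand.
Snrpe: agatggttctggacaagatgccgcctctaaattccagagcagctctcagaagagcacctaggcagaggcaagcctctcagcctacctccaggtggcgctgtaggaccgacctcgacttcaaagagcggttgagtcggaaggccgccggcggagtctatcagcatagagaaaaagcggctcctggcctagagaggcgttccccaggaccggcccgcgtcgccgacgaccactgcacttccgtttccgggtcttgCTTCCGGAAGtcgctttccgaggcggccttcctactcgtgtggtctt
Snrpg: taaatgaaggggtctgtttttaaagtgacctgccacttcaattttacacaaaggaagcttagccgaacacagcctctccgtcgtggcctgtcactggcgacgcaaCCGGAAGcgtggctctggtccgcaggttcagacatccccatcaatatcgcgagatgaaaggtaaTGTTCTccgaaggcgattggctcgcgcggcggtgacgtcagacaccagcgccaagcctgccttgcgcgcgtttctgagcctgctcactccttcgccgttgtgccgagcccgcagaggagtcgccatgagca

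Many of these genes are annotated with transcripts that the cell destroys. SR protein genes are known to control their own level through such isoforms, and 9 of the 11 Srsf genes (81.8%) have an annotated nonsense-mediated decay transcript in GENCODE M21, as do 10 of 20 Hnrnp genes (50.0%), 4 of 12 Snrp genes and 1 of 9 Sf3 genes. Of 10621 protein-coding genes averaging at least 100 reads, 30.3% do. Reads were deposited per gene, so shifts between productive and decaying isoforms were not analysed here.

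Folds followed transcript GC content among the splicing genes. Over the 51 genes Pearson's r was -0.42 and Spearman's rho -0.56 between GC content and log2 fold, against -0.29 and -0.38 over 11062 genes. The genes share both libraries, so the relation describes this pair of libraries. With the trend of all genes removed, the median log2 fold of the 51 was -0.01, and Snrpe was at -0.42. Removing the trend put 13 of the 51 genes on the other side of 0. They were Srsf1, Srsf6, Srsf7, Srsf10, Hnrnpa2b1, Hnrnpf, Hnrnph1, Hnrnpk, Hnrnpm, Hnrnpr, Sf3a2, Sf3b1 and Sf3b5, all but Sf3a2 from above to below. The family medians were then -0.02 for SR genes, -0.01 for hnRNP genes, 0.0022 for snRNP genes and -8.2e-05 for SF3 genes.

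**Figure D5:**
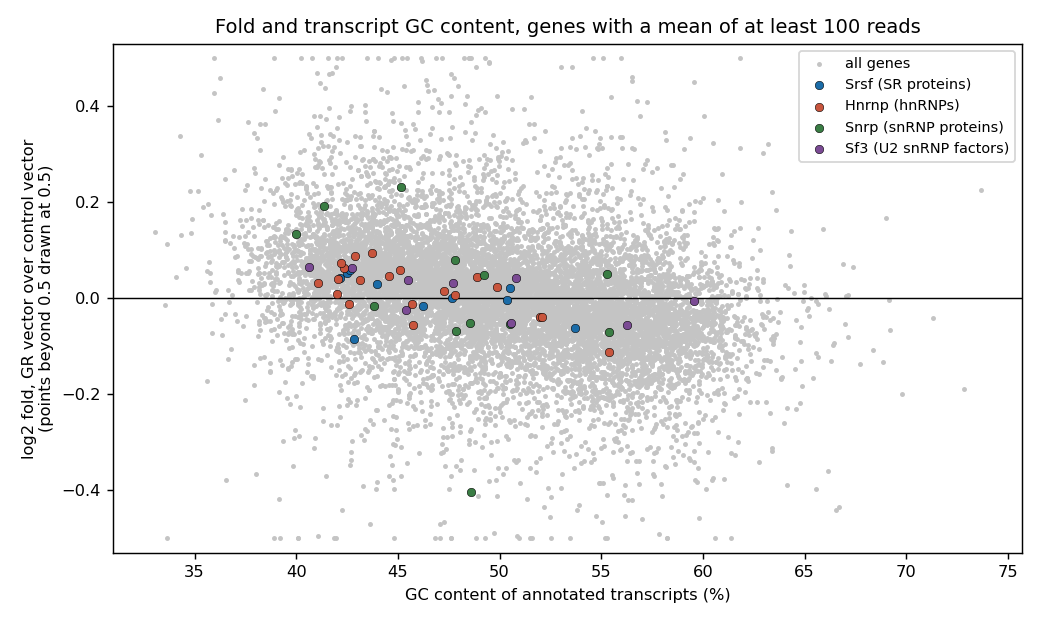
Log2 fold, GR vector over control vector (vertical axis, points beyond 0.5 drawn at 0.5) against the GC content of annotated transcripts in percent, for all genes averaging at least 100 reads in grey and the splicing genes in colour by family. The coloured points slope down with GC content as the grey cloud does, apart from Snrpe at -0.40.

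Other genes of the splicing pathway, in 7 lists, had median log2 folds between -0.04 and 0.09. U1, U2 and branch point factors outside the named families had a median log2 fold of 0.03 over 22 genes, with 0 past 1.2-fold. Snrnp70, the U1 protein that binds the first stem of U1 RNA, had 4619 reads with the GR vector and 5051 with the control vector (0.917, 0.881 to 0.955), and Cherp had 2657 and 2905 (0.917, 0.870 to 0.967). The branch point binder Sf1 had 7467 and 7847 in the GR and control libraries (0.954, 0.924 to 0.985), and U2af2, which reads the polypyrimidine tract, had 6198 and 6401 (0.971, 0.938 to 1.01). These were all on the lower side, while 12 of the 22 lay above 0.

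Tri-snRNP factors had a median of -0.02 over 25 genes, with 0 higher and 2 lower past 1.2-fold, against 2.68% and 2.36% of all genes. Ppih, a cyclophilin of the tri-snRNP, had 68 reads with the GR vector and 173 with the control vector, a fold of 0.394 (0.293 to 0.525), with 41.2% of its 31-mers in other genes. Lsm7, of the ring on U6 RNA, had 444 and 539 in the GR and control libraries (0.826, 0.727 to 0.938). Prpf8, the core of the catalytic centre, had 15250 and 15144 (1.01, 0.987 to 1.03). The U5 helicase gene Snrnp200 had 7485 reads with the GR vector and 7093 with the control vector (1.06, 1.02 to 1.09).

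The Prp19 complex and catalytic step factors had a median of 0.02 over 28 genes and 0 past 1.2-fold. Cwc27 had 218 and 193 reads with the GR and control vectors (1.13, 0.929 to 1.38), Ik 2846 and 2632 (1.08, 1.03 to 1.14), Prpf19 5836 and 5786 (1.01, 0.975 to 1.05) and Wbp11 2883 and 3117 (0.928, 0.881 to 0.976). SR protein kinases and RS domain relatives had a median of 0.0042 over 25 genes, again with 0 past 1.2-fold. Clk2, a kinase that phosphorylates SR proteins, had 897 reads with the GR vector and 1026 with the control vector (0.877, 0.801 to 0.960), and Srrm3, a regulator of microexons in neural and endocrine cells, had 819 and 938 (0.876, 0.796 to 0.963). The speckle scaffolds Son and Srrm2 had folds of 1.03 and 0.976.

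Other splicing regulators, such as PTB, CELF and RBFOX proteins, had a median of 0.0061 over 39 genes, with 0 past 1.2-fold. Rbfox1, a neural and muscle regulator, had 201 reads in the GR library and 234 in the control library (0.861, 0.710 to 1.04), and Esrp2, an epithelial one, had 659 and 733 (0.902, 0.810 to 1.00). Nono and Ewsr1 had folds of 1.01 and 0.978. Genes of the SMN complex, which loads the Sm ring onto RNA, had a median of -0.04 over 17 genes, which was 0.03 over those averaging at least 500 reads, and 0 past 1.2-fold. Clns1a, a chaperone of Sm proteins before that step, had 1298 reads with the GR vector and 1141 with the control vector (1.14, 1.05 to 1.24), and Gemin7 had 636 and 559 (1.14, 1.02 to 1.28); Strap and Prmt5 had folds of 1.04 and 1.06.

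Minor spliceosome genes had a median of 0.09 over 12 genes and of -0.0003 over those averaging at least 500 reads. The latter value is the midpoint of Zcrb1 and Snrnp48, at log2 folds of 0.064 and -0.065, the most read genes of the list. It says little about the other genes of the list. Past 1.2-fold were 1 higher and 1 lower, against 2.68% and 2.36% of all genes. Snrnp35 had 326 reads with the GR vector and 259 with the control vector (1.26, 1.07 to 1.49), and Snrnp25 had 231 and 284 (0.816, 0.683 to 0.974). Zcrb1 and Snrnp48 had folds of 1.05 and 0.956. The list was sparsely read, with a median of 281.75 reads.

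By the adjusted p of the authors' deposited table, 4 of 21542 genes (0.0186%) passed 0.05, and 0 of the 52 splicing genes did. Nr3c1 itself, at a fold of 1.97, was not among the 4. An unadjusted p under 0.05 was held by 235 of the 21542 genes and 0 of the 52. The deposited values and edgeR's exact test, with the same preset dispersion of 0.04, gave the same counts. With so few of all genes under the limit, 0 of 52 does not set the splicing genes apart. The authors' deposited list, cut at 0.05 before adjustment and at an absolute log2 change over 1, held 233 genes (1.08%), 0 of them among the 52. With a smaller preset dispersion of 0.01 the exact test called 16 of the 21542 genes, again with 0 of the 52. The authors' deposited gene set report gave its spliceosome set, of 131 genes, an enrichment score of 0.669 and a normalized score of 1.01, 94th of 307 sets by the normalized score and 17th by the enrichment score. The deposited report lists for it a nominal p of 0 and an FDR q of 0.952, and the lowest FDR q of its 307 sets is 0.877. With 1 library per group that nominal p cannot reflect variation between cultures. That deposited report is titled for the GR culture, and all 307 sets in it have a positive score. The ranks therefore hold among sets scored toward that side only.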

How the data were processed

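Messenger RNA of 1 GR vector and 1 control vector culture was compared. The authors deposited, per the file headers, a table with a normalized signal per gene and library, a log2 fold change and p-values before and after adjustment, and a gene set report with enrichment scores. DESeq2 1.10.1 is listed per the submitters' processing notes. The sources used here do not give the aligner, counting tool, strand handling or build. In both libraries 100% of the deposited signal values were whole multiples of a step (within 0.01 reads), so reads were recovered by division. An exact test in edgeR 4.0.16 on these reads, with a preset dispersion of 0.04, called 4 genes and differed from the deposited p-values by at most 4.45e-08. The log2 fold change was checked the same way.

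Folds used TMM-scaled library sizes and exact Clopper-Pearson intervals at 95%, which cover counting error only. They were tested on simulated libraries drawn with counting error alone. That test cannot show how the intervals fare with variation between cultures. PCR copies are not independent molecules. Genes needed a mean of 100 reads, and 1.2-fold was the size limit; no replicate test was possible with 1 library per group. Lengths, GC content and shared 31-mers came from GENCODE M21 (GRCm38), which holds 21533 of the identifiers, 96.8% with the same coordinates. Lists, members and limits were chosen with earlier results of these data known. Reads were given for the 3 largest increases and decreases and the 2 most read genes per family, those past 1.2-fold or under 100 reads, Hnrnpa2b1, Hnrnpc, Snrpb and Snrpn, and the 2 largest changes and 2 most read genes per pathway list. Other genes named for their sequence partners, ranges, counting intervals, levels or motifs were chosen after their values were seen. Alternatives were other scalings, filters, folds, trends and length definitions.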

Additional observations from a re-analysis of the deposited data

How the results depend on the processing

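The count of splicing genes past 1.2-fold changed with the filter and with the limit. Without a filter on reads 1 gene was higher, which is Srsf12 with 5 and 4 reads in the GR and control libraries. At a limit of 1.1-fold 2 were higher (Snrpn and Snrpf, against 10.7% of all genes) and 1 lower (against 10.4%), and at 1.5-fold 0 were lower. The median level per length was 65.3 RPKM in the GR library and 66.4 in the control library with the longest transcript. Removing the GC trend moved the median log2 fold of all members to -0.01, of SR genes to -0.02, of hnRNP genes to -0.01 and of SF3 genes to -8.2e-05. The Snrp median was -0.05 both with a mean of at least 500 reads and with genes of many shared 31-mers left out. Intervals that leave out 1 numbered 0 higher and 6 lower with the GC trend removed, and 4 higher and 3 lower with the length trend removed; both settings were chosen after seeing the data and treat the trend as exact. In the other settings they ran from 6 to 8 higher and were 4 lower. Of the values for medians, levels and counts, 143 moved by no more than a set limit and 7 were marked as moved. The medians of log2 fold above are among the 143. For counts the limit was 1.5 times. The median levels with the longest transcript were marked as moved without a limit. For medians of log2 fold the limit was counting error, taken as that typical of a single gene in the group. Such a limit is wider than the counting error of a median over many genes. Whether the sign changes of these medians lie within the error of a median was not tested. No gene past 1.2-fold changed sign in the alternatives run, and Son moved to -0.0024 with the length trend removed. No paired analysis was possible because each group has 1 library, and for the same reason no library could be left out. Depth limits genes such as Snrpn, whose interval of 1.01 to 1.37 rests on 377 and 322 reads with the GR and control vectors.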

Other observations

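Reads were also counted to processed pseudogenes and overlapping genes of this family. There were 55 genes in the table that hold at least 5% of the 31-mers of a splicing gene, 36 of them pseudogenes, spread over 25 splicing genes. Hnrnpa3 has 14 such copies, which summed to 4346 reads with the GR vector and 4288 with the control vector, more than Hnrnpa3 itself (2383 and 2409). Gm6793, a copy on chromosome 8 annotated as protein coding, had 2178 and 2148 reads in the GR and control libraries. Gm7964, a processed pseudogene of Hnrnpk, had 1699 reads with the GR vector and 1904 with the control vector (fold 0.895, 0.838 to 0.956), while Hnrnpk had a fold of 1.03. Gm7964 holds 15.6% of the 31-mers of Hnrnpk, and the interval of Hnrnpk began at 1.002, barely above 1. Whether Hnrnpk stays among the higher intervals with Gm7964 added was not tested.

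Of these genes 19 averaged at least 100 reads, and 3 of the 19 lay past 1.2-fold, against 5.04% of all genes. The 2 shares are not matched for depth. Each of the 3 had fewer reads than the median of all genes with that many reads (843). Of genes averaging at least 1000 reads 0.288% lay past 1.2-fold. Phykpl, which overlaps Hnrnpab in the annotation, had 330 reads with the GR vector and 265 with the control vector (1.25, 1.06 to 1.47), and Hnrnpab had a fold of 0.974. Gm12966, a processed pseudogene of Srsf5, had 183 and 221 reads in the GR and control libraries (0.830, 0.679 to 1.01), on the same side as Srsf5. The lincRNA Gm47882, which shares sequence with Hnrnpf, had 114 and 88 (1.30, 0.975 to 1.74). How much of these counts comes from reads of the parent genes was not tested.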
